A study of Mus with 2 samples.

Results

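The report describes 10 chemokine ligand genes, of 32285 genes in the deposited matrices, in hindlimb bone marrow of mice from a ground group and a running group. The genes were taken by symbol: Cxcl2, Ccl6, Ccl9, Ccl3, Ccl4, Ccl5, Xcl1, Cxcl10, Pf4 and Ppbp. Each group had 1 library, made from single cells with a droplet kit that reads the 3′ end of transcripts (Chromium, v3 chemistry). Every captured molecule is marked with a unique molecular identifier (UMI), so PCR copies are counted once. The labels give no strain, age, sex or number of mice, and do not say how or how long the mice ran.

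Chemokines are small secreted proteins that guide leukocytes along gradients by binding receptors on their surface. In the marrow they take part in the release and return of neutrophils and monocytes, in contacts between lymphocytes and dendritic cells, and, as platelet granule contents, in the control of stem cells by megakaryocytes. Many are stored or made in bursts, so a few cells can carry a large part of the message.

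Filtering kept 8666 cells of ground (median 5938 UMIs) and 9080 of running (median 5145.5 UMIs). The 2 libraries shared 24 cell barcodes. Cells were clustered without the chemokine ligand genes, and clusters were named from marker genes; names end in "like", and 14 classes were compared. Levels are UMIs of a gene per 1000000 UMIs (CPM), summed over the cells of a library or class. Ratios are log2 of running over ground, with 95% intervals for counting error alone. No difference has a replicate check, since each group is 1 library, and none was tested; a gene is called higher or lower at 2-fold or more with an interval that leaves out 0.

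Over all cells, 5 of the 10 genes were called higher in running and 0 lower: Ppbp, Pf4, Xcl1, Ccl4 and Ccl5. Of 11613 genes with at least 200 UMIs, 1.21% were called higher and 0.319% lower. Ccl3 lay just under the fold at 0.87, Cxcl10 stood at 0.56 and Ccl6 at 0.28. Ccl9 and Cxcl2 lay below 0, at -0.34 and -0.83. The median over the 10 genes was 1.02, against 0.07 over all genes tested. The calls depended on the weighting of cells: with the mean of per-cell CPM only Ppbp and Pf4 passed 2-fold, and Cxcl10 turned to -0.56. With running weighted to the class make-up of ground, 3 genes passed (Ppbp, Pf4 and Ccl4).

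**Figure D1:**
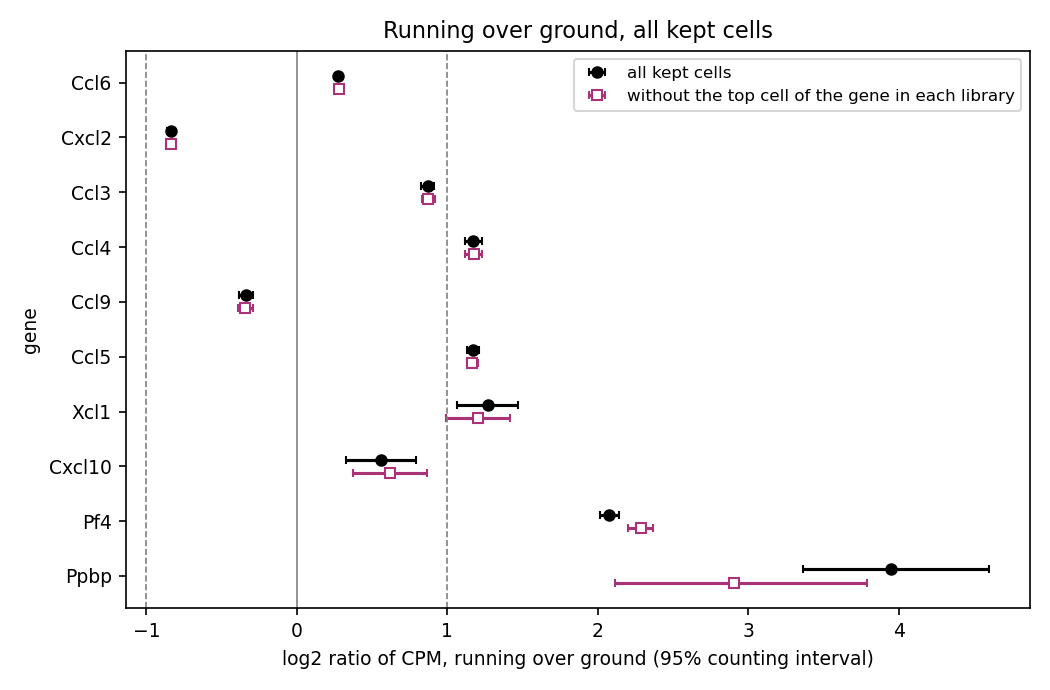
Log2 ratio of CPM (running over ground) of each chemokine ligand gene over all kept cells (filled circles) and without the cell holding most UMIs of that gene in each library (open squares); bars are 95% counting intervals and dashed lines mark 2-fold. Ppbp moved from 3.95 to 2.90 without its top cells, Pf4 from 2.08 to 2.28, and the other genes stayed close to their first value.

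The genes divided into those found in a large share of cells and those held by a handful. Ccl6 was seen in 49.6% of ground cells and 56.3% of running cells, and its top cell held 0.217% and 0.193% of its UMIs. At the other end, the top 10 cells held all 25 Ppbp UMIs of ground and 98.1% of the 369 of running. For Pf4 the top 10 cells held 95.9% and 96.0%. Cxcl10 came next, with 57.0% and 50.3% in its top 10 cells, and Xcl1 after it with 28.1% and 36.0%.

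**Figure D2:**
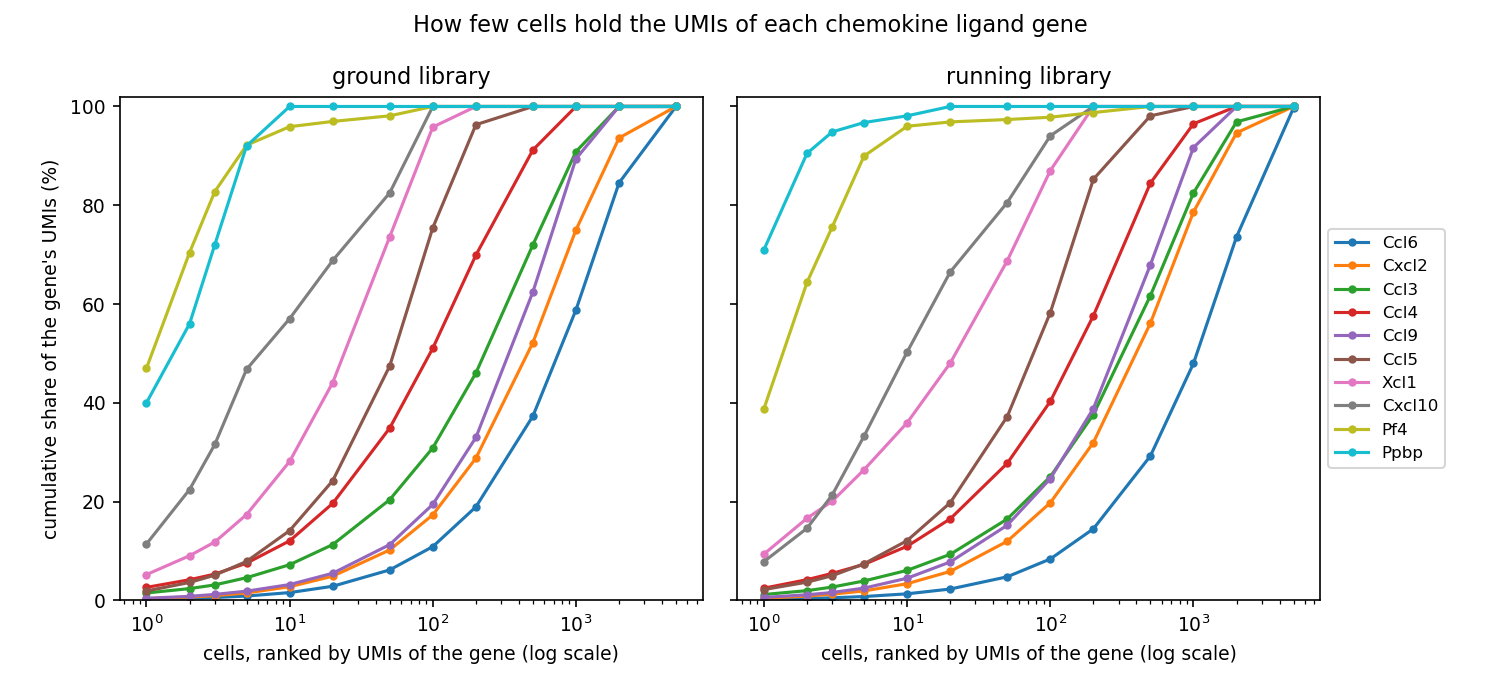
Cumulative share (%) of the UMIs of each gene against the number of cells, ranked by UMIs of that gene, on a log axis; ground at the left and running at the right. The curves of Ppbp and Pf4 reach over 95% within 10 cells, whereas the top 10 cells hold 1.56% and 1.31% of Ccl6.

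The sources were separate for most genes. Ccl6 and Cxcl2 came mainly from mature neutrophil-like cells, Ccl9 from monocyte-like cells, Ccl5 and Xcl1 from T and NK cell-like cells, and Pf4 and Ppbp from a few cells of the stem or multipotent progenitor-like cluster. Ccl3 and Ccl4 were spread over myeloid classes, and in each library basophil or mast cell-like cells had the highest level. The name leukocyte thus covers 8 of the 10 genes, since the cells with Pf4 and Ppbp carried megakaryocyte genes, as described further on.

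**Figure D3:**
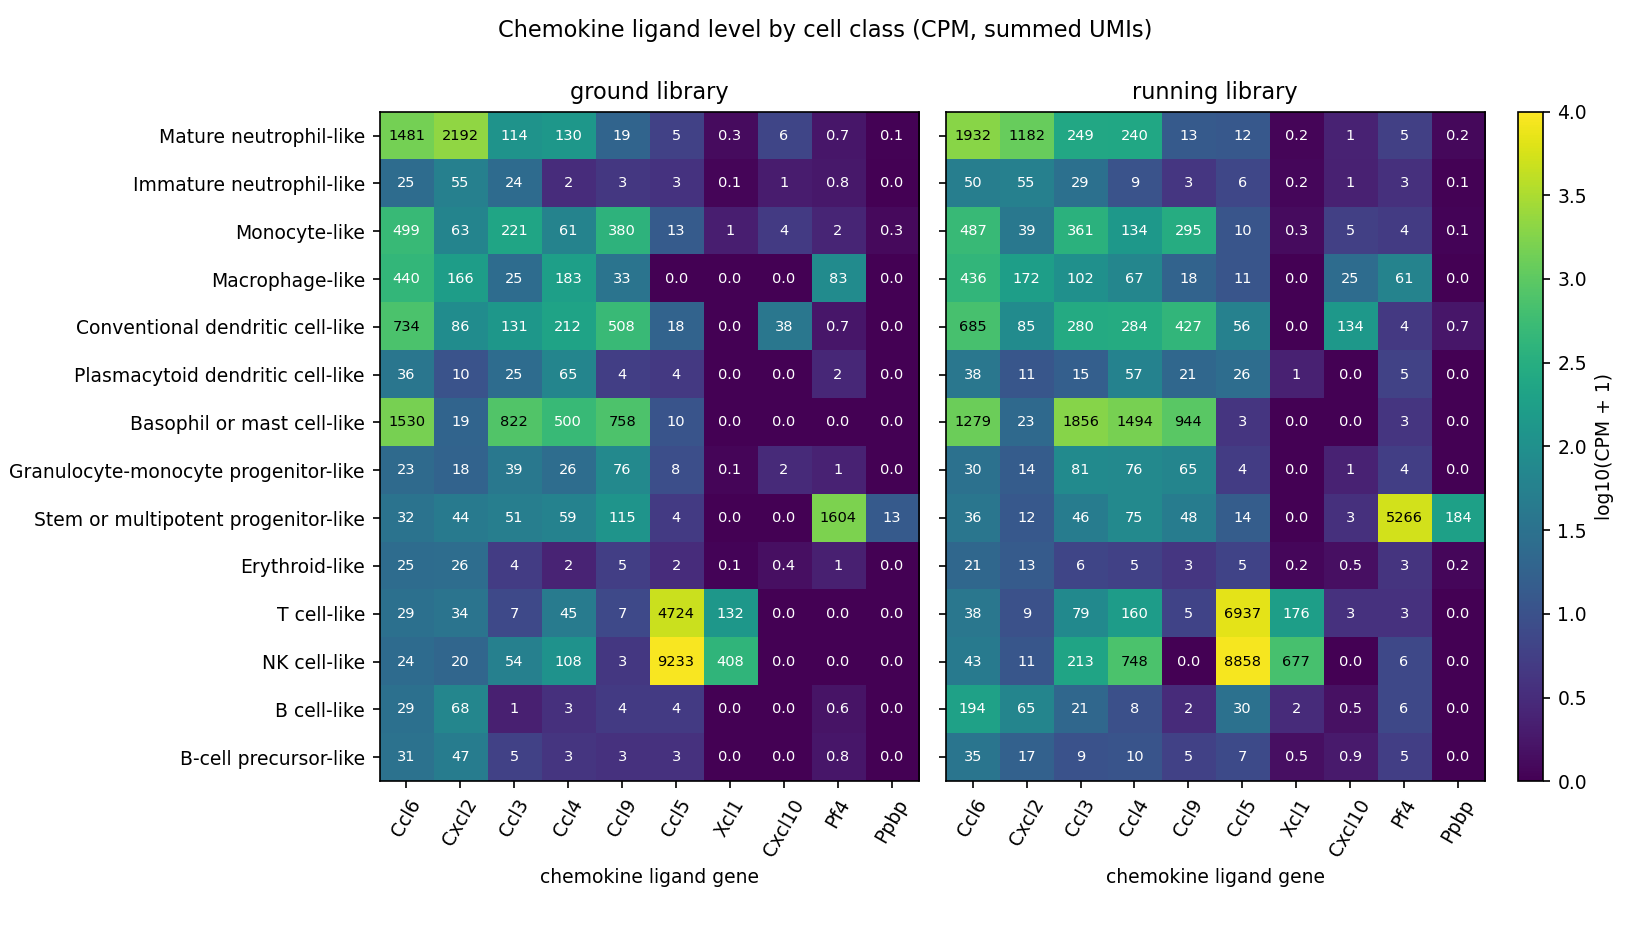
CPM of each gene (columns) in each of the 14 compared classes (rows), ground at the left and running at the right, with the value printed in each field and log10(CPM + 1) as colour. Ccl5 is high in T and NK cell-like rows, Cxcl2 in the mature neutrophil-like row, and Pf4 in the stem or multipotent progenitor-like row of both libraries.

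Cxcl2 is a CXC chemokine that attracts neutrophils through Cxcr2 (ENSMUSG00000058427; chromosome 5, 90903899 to 90905938 in GRCm38.p6). It had 33102 UMIs in ground and 17736 in running, of which mature neutrophil-like cells contributed 90.4% and 87.1%. Their level was 2192 CPM (ground) and 1182 CPM (running), a log2 ratio of -0.89 (-0.92 to -0.86). This is short of 2-fold, so Cxcl2 was not called, although it had the lowest ratio of the 10 genes over all cells.

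Fewer of these neutrophils carried the message in running: 82.8% of 2883 cells in ground and 63.2% of 3348 in running had a Cxcl2 UMI. With every cell thinned to 1000 UMIs the shares were 62.1% and 41.7%. Cells with a UMI held on average 12.5 and 7.31 UMIs. In B-cell precursor-like cells, taken as the background from free RNA, 4.42% and 5.84% had a UMI. These precursors held 123 and 73 Cxcl2 UMIs, at 47.4 and 16.7 CPM, so their share and level gave opposite orders. What part of these UMIs is free RNA was not tested. Median depths were 4409 and 3644.5 UMIs in the neutrophils and 3128 and 3739 in the precursors.

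The mature neutrophil-like class was made of different clusters in the 2 libraries. Clusters 5, 3 and 1 held 34.3%, 32.9% and 21.7% of the class in ground, whereas clusters 19, 1 and 4 held 40.4%, 26.7% and 18.0% in running. Cluster 20, led by the interferon-induced genes Ifit1, Ifit3 and Isg15, held 5.27% and 11.5%. Cxcl2 was lower in running in 5 of the 6 clusters, with log2 ratios from -1.41 in cluster 4 to -0.58 in cluster 20. Several clusters were nearly confined to 1 library: cluster 3 had 949 ground and 36 running cells, cluster 5 had 989 and 83, and cluster 19 had 67 and 1351. The libraries were clustered without integration, so cluster membership cannot be told apart from a library effect. The clusters are therefore not separate checks of the class ratio. In cluster 1, the least Cxcl2-rich cluster, the levels were 459 and 484 CPM, a ratio of 0.08 (-0.01 to 0.16). The ground cells of cluster 4 stood at 5372 CPM against 2017 CPM for its running cells, and those of cluster 3 at 4579 CPM against 2222 CPM in 36 running cells.

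**Figure D4:**
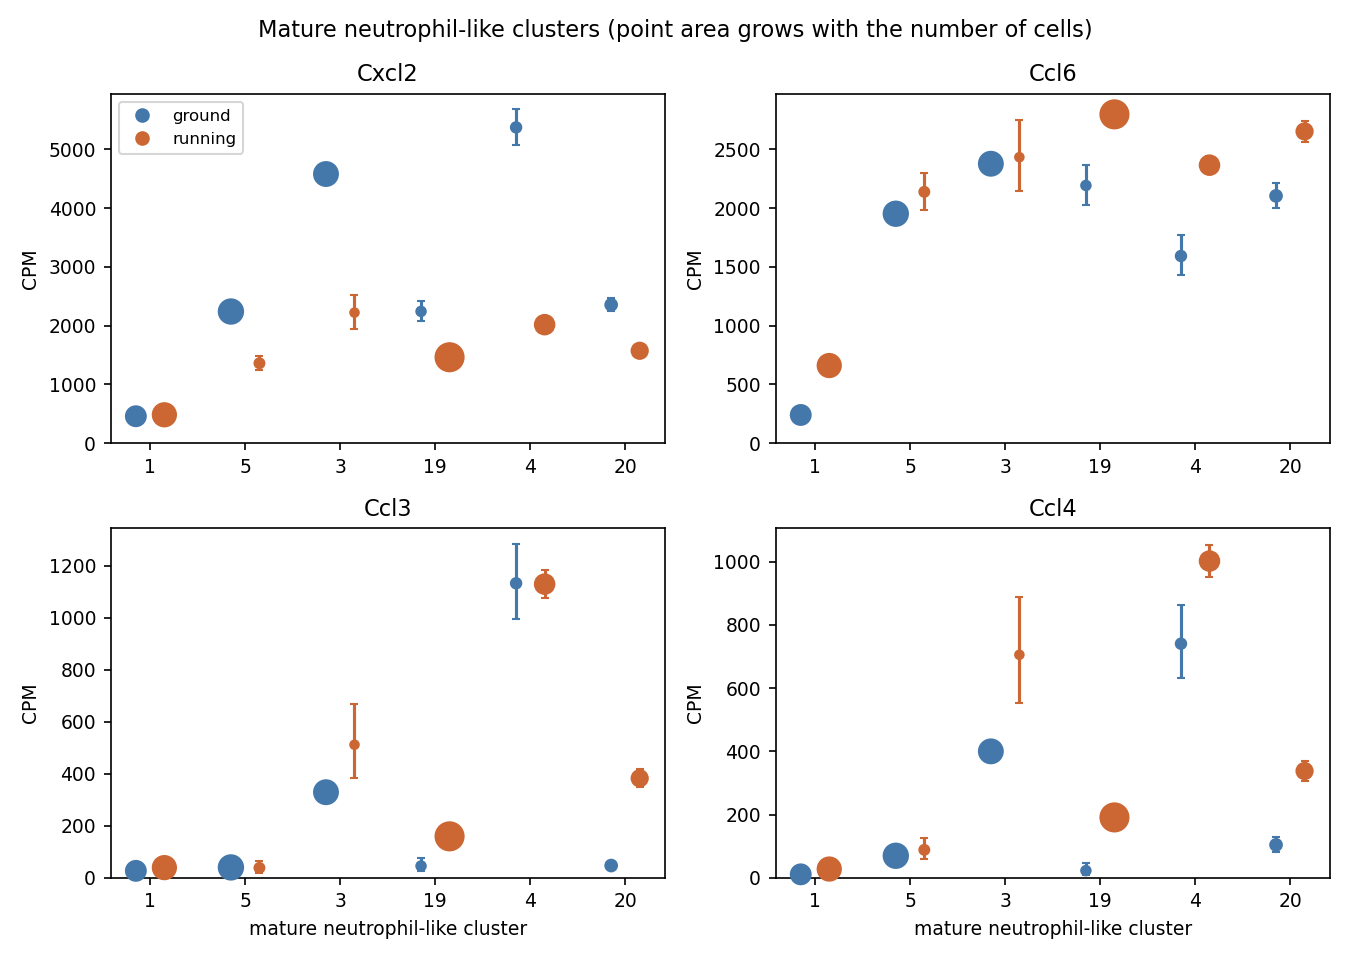
CPM of Cxcl2, Ccl6, Ccl3 and Ccl4 in the 6 mature neutrophil-like clusters, ground in blue and running in orange; bars are 95% counting intervals and point area grows with the number of cells. Cxcl2 is lower in running in every cluster but cluster 1, and Ccl6 lies higher in running in all 6, by 0.03 (log2) in cluster 3.

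Monocyte-like cells had less Cxcl2 too, with levels of 62.8 and 39.3 CPM (log2 ratio -0.68, -0.83 to -0.52). Their clusters differed: cluster 22 had 52.7 and 14.2 CPM, whereas cluster 7 had 20.2 and 26.4 CPM (0.39, 0.02 to 0.76). Of 11 classes with at least 50 Cxcl2 UMIs, 7 had an interval below 0 and 0 an interval above it. Calls of lower were made in 3 of them, at low levels: stem or multipotent progenitor-like (69 and 23 UMIs), B-cell precursor-like, the background class (123 and 73), and T cell-like (36 and 16). In T cell-like cells 1 ground cell held 23 of the 36 UMIs, and without the top cells the ratio moved from -1.97 to -1.04, with an interval across 0. The T cell-like class also carried neutrophil markers, summed to 987 and 816 CPM, all 15 of 15 with a UMI; their part in the Cxcl2 values was not tested.

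Ccl6, a rodent CC chemokine that signals through Ccr1, is made by neutrophils and macrophages (ENSMUSG00000018927; chromosome 11, 83587886 to 83593087). Over all cells it had 31392 and 36302 UMIs, 64.4% and 69.6% of them in mature neutrophil-like cells. Their level was 1481 CPM and 1932 CPM (log2 ratio 0.38, 0.36 to 0.41), opposite in direction to Cxcl2 in the same cells. The share of these cells with a UMI was 79.7% and 89.1%, or 59.3% and 71.3% after thinning. In B-cell precursor-like cells the share was 9.26% and 12.6%.

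Among the 6 mature neutrophil-like clusters the Ccl6 ratio was highest in the one with the lowest level. In this cluster 1, led by Mmp8, Mmp25 and Mmp9, the levels were 241 and 661 CPM (log2 ratio 1.46, 1.36 to 1.56). The other 5 clusters had ratios from 0.03 to 0.57. Immature neutrophil-like cells, at 24.7 and 49.7 CPM, were called higher, with an interval of 0.85 to 1.17 on the log2 scale. The B-cell precursor-like background stood at 31.2 and 34.7 CPM, so the ground level of this class lay under it. The part of free RNA in this call was not tested. In monocyte-like cells the levels were 499 and 487 CPM, a ratio of -0.04 (-0.08 to 0.01).

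B cell-like cells had 46 Ccl6 UMIs in ground and 369 in running, a call of higher at 2.72. Of these, 20 and 331 UMIs were in cluster 33, which held 7 ground and 37 running cells. In the main B cell-like cluster the values were 24 and 37 UMIs, a ratio of 0.61 with an interval across 0 (-0.17 to 1.42). Cluster 33 also held 81 and 112 Cxcl2 UMIs, at 2757 and 418 CPM. All 15 of 15 mature neutrophil markers had a UMI in its cells of either library, summed to 25461 and 27356 CPM, beside B cell markers (11 of 11) at 8918 and 6894 CPM. Over the whole B cell-like class the neutrophil markers summed to 1767 and 4690.3 CPM, and Il1b had 48 and 381 UMIs. Their part in the Ccl6 result was not tested.

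Ccl9, another rodent ligand of Ccr1, is known from macrophages and osteoclasts (ENSMUSG00000019122; chromosome 11, 83572917 to 83578636). Of its 8381 UMIs in ground and 6326 in running, 70.4% and 62.4% were in monocyte-like cells. Their level was 380.0 and 295 CPM (log2 ratio -0.36, -0.42 to -0.31). The share of monocyte-like cells with a UMI was 76.2% and 77.1%, but 34.7% and 28.0% after thinning; the B-cell precursor-like background was 1.26% and 3.19%. Median depths of the monocyte-like cells were 10050.5 and 9367 UMIs.

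Among monocyte-like clusters, Ccl9 was lower in running in cluster 13, the largest, at 634 and 494 CPM, and in cluster 22 at 267 and 170 CPM. Basophil or mast cell-like cells went the other way, at 758 and 944 CPM (0.32, 0.16 to 0.47). Of 8 classes with at least 50 Ccl9 UMIs, 5 had an interval below 0 and 1 an interval above it. Stem or multipotent progenitor-like cells were called lower, with 183 and 93 UMIs (-1.28, -1.65 to -0.91).

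Ccl3 and Ccl4 are inflammatory CC chemokines that attract monocytes and lymphocytes; Ccl3 binds Ccr1. Ccl3 (ENSMUSG00000000982; chromosome 11, 83647843 to 83649378) and Ccl4 (ENSMUSG00000018930; 83648624 to 83664683) overlap by 755 bases in the RefSeq annotation of GRCm38.p6. The sources used here do not say whether counting used strand, so how reads in the overlap were assigned is not known. Ccl3 had 6798 UMIs in ground and 11860 in running, and Ccl4 had 3937 and 8472.

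Ccl4 was seen more often in Ccl3-positive cells than in the others. In ground, 405 of 1621 Ccl3-positive cells had a Ccl4 UMI, against 6.27% of Ccl3-negative cells. In running the shares were 32.6% and 7.82%, so most Ccl3-positive cells of either library had no Ccl4 UMI. These shares pool all classes and were not matched for depth. The class profiles of Ccl3 and Ccl4 were also the closest of any gene to each other (Pearson r 0.86 over 28 class and library sums). Even so, Ccl3 leaned towards monocyte-like cells, which held 50.6% and 40.7% of its UMIs. For Ccl4 the first source was mature neutrophil-like cells, with 45.2% and 37.1%.

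Basophil or mast cell-like cells, 106 in ground and 110 in running, had the highest level of both genes. Their Ccl3 stood at 822 and 1856 CPM (log2 ratio 1.18, 1.04 to 1.31) and their Ccl4 at 500.01 and 1494 CPM (1.58, 1.41 to 1.75). In ground 59.4% of them had a Ccl3 UMI and in running 95.5%; thinned shares were 44.3% and 75.5%. For Ccl4 the shares were 48.1% and 79.1%, thinned 31.8% and 46.4%. In B-cell precursor-like cells, the background, 2.53% and 4.07% had a Ccl3 UMI and 1.47% and 3.36% a Ccl4 UMI. Depth differed in this class, with medians of 4321 and 5366 UMIs, and thinning left out 18 ground cells and 0 running cells. In this class 2 of 4 genes with at least 50 UMIs were called higher and 0 lower, against 1.41% and 0.857% of 4668 features.

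In monocyte-like cells Ccl4 was called higher, at 60.9 and 134 CPM (1.14, 1.02 to 1.25), while Ccl3 lay at 221 and 361 CPM (0.71, 0.64 to 0.77). Pf4 was the other call in this class; 2 of 8 genes were called higher and 0 lower, against 0.911% and 0.816% of 10542 features. With the mean of per-cell CPM, 2 genes passed 2-fold upwards and 3 downwards, the latter being Ccl5 at -2.28, Cxcl2 at -1.35 and Cxcl10 at -1.02. The share of these cells with a Ccl3 UMI was 48.4% in ground and 68.6% in running, thinned 16.5% and 29.5%, above the B-cell precursor-like shares just given. All 5 monocyte-like clusters had a Ccl3 ratio above 0, from 0.54 in cluster 7 to 0.98 in the shallow cluster 6. Cluster 15, whose leading genes include Nr4a1 and the heat shock genes Hspa1a and Hspa1b, had 43 and 75 UMIs. For Ccl4, 4 of the 5 clusters lay above 0, and cluster 6 stood at -0.42 (-1.60 to 0.63).

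Mature neutrophil-like cells had Ccl3 levels of 114 and 249 CPM, a call of higher (1.13, 1.04 to 1.22), and Ccl4 at 130.4 and 240.4 CPM (0.88, 0.80 to 0.97). In this class 3 of 8 genes were called higher and 1 lower, against 2.22% and 1.41% of 8237 features; the others were Ccl5 and Pf4, higher, and Cxcl10, lower. Averaged over the 3 clusters with at least 100 cells in both libraries, which gave a value for 5 of the 8 genes, Ccl3 (1.19) and Ccl4 (1.15) passed 2-fold. The cluster make-up moved with the Ccl3 result. Cluster 4, led by Ptgs2, Fgl2 and Il1b, had the highest Ccl3 level in both libraries, 1133 and 1130 CPM, with a ratio of 0.00 (-0.20 to 0.19). It held 3.47% of the class in ground and 18.0% in running. Within cluster 20 Ccl3 was at 47.2 and 383 CPM (3.02, 2.52 to 3.57), and within cluster 1 at 26.9 and 39.3 CPM (0.54, 0.21 to 0.88).

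Ccl4 lay above 0 in all 6 neutrophil clusters, from 0.34 (-0.25 to 0.88) in cluster 5 to 3.07 in cluster 19, where ground had 67 cells and 7 UMIs. The top ground neutrophil for Ccl4, with 103 UMIs of its 2189, was also the top cell for Cxcl2 with 116 and held 39 Ccl3 UMIs. Of 13 classes with at least 50 UMIs, Ccl3 was called higher in 7 and lower in 0, and Ccl4 higher in 8 and lower in 1. Several of these calls are at low levels, such as B-cell precursor-like cells, the background class, with 8 and 44 Ccl4 UMIs.

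In the classes not yet described, members called are set beside the share of all features called higher and lower. Immature neutrophil-like cells had 4 of 7 higher and 0 lower (0.994% and 0.303% of features), the 4 being Ccl4, Ccl5, Ccl6 and Pf4. Granulocyte-monocyte progenitor-like cells had Ccl3 and Ccl4 higher, 2 of 6, and 0 lower (0.788% and 0.368%). Erythroid-like cells had Ccl4, Ccl5 and Pf4 higher, 3 of 7, and 0 lower (0.856% and 0.49%). B cell-like cells had Ccl5 and Ccl6 higher, 2 of 3, and 0 lower (2.26% and 0.509%). Most of their running Ccl6 UMIs were in cluster 33, described above with its neutrophil markers. A single running cell held most of their running Ccl5 UMIs. Neither call thus describes the class at large. B-cell precursor-like cells had Ccl4 higher and Cxcl2 lower among 4 (0.441% and 0.51%). Macrophage-like cells had Ccl3 higher and Ccl4 lower among 4 (3.36% and 2.73%). Plasmacytoid dendritic cell-like cells had 0 of 3 called (0.68% and 0.458%). Of these 7 classes, 6 had at least 1 call, and Ccl4 was called in 5. Immature neutrophil-like cells are also the free RNA background taken for Ccl5, and B-cell precursor-like cells that for Ccl4 and Cxcl2. Calls of these genes in those classes are thus calls within the background. Erythroid-like Ccl4 stood at 1.504 and 4.87 CPM, below the 3.08 and 10.04 CPM of B-cell precursor-like cells in both libraries. The erythroid-like call of Ccl4 is thus made at levels under its background. Erythroid-like Pf4 was at 1.24 and 3.03 CPM, against 0.771 and 4.56 CPM in the precursors. It lay above them in ground and below them in running. The part of free RNA in calls outside the background classes was not tested.

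**Figure D5:**
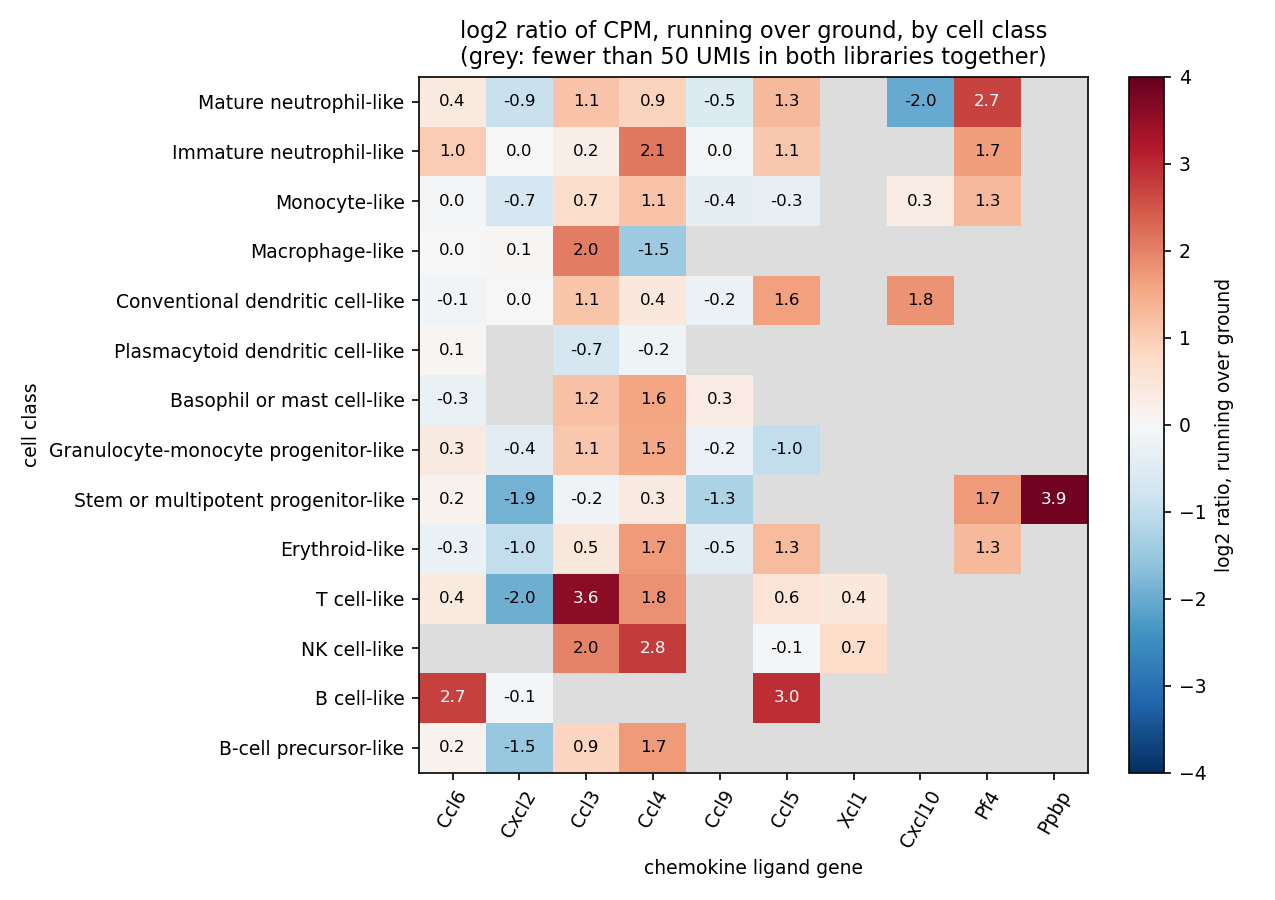
Log2 ratio of CPM (running over ground) of each gene (columns) in each class (rows), with the value printed in each field; grey fields had fewer than 50 UMIs in both libraries together. Ccl3 and Ccl4 are above 0 in 11 of 13 classes each, and Cxcl2 is above 0 in 1 of 11.

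NK and T cell-like cells held little of the 2 genes in ground, and single cells carried much of it in running. NK cell-like cells had 32 Ccl4 UMIs in ground and 351 in running, of which 1 running cell held 208, with 38 of Ccl3 and 48 of Xcl1; the ratio was 2.79 and 2.40 without the top cells. T cell-like cells had 7 and 145 Ccl3 UMIs and 48 and 295 Ccl4 UMIs. A single running T cell held 93 of the Ccl3 and 146 of the Ccl4 UMIs. It also held all 118 UMIs of Ccl1, 66 of Ifng, the interferon gamma gene, and 65 of Ccl5, with 8 Cd4 UMIs and 0 of Cd8a. Without it the T cell ratios were 2.11 for Ccl3 and 0.85 for Ccl4, so that Ccl4 lost its call. In T cell-like cells 2 of 6 genes were called higher and 1 lower, against 1.58% and 0.636% of 6132 features.

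Ccl5 attracts T cells and monocytes through receptors that include Ccr1 and Ccr3 and marks memory and effector lymphocytes (ENSMUSG00000035042; chromosome 11, 83525778 to 83530518). The T cell-like class contributed 61.0% (ground) and 72.3% (running) of its UMIs, and the NK cell-like class 33.2% and 23.5%. Over all cells it had 8241 and 17702 UMIs (log2 ratio 1.17). Within T cell-like cells the level was 4724 and 6937 CPM (0.55, 0.51 to 0.60), and within NK cell-like cells 9233 and 8858 CPM (-0.06, -0.13 to 0.01).

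The 2 classes also made up more of the running cells: 2.37% and 3.18% of all cells were T cell-like, and 0.658% and 0.837% were NK cell-like. When running was weighted to the class proportions of ground, the Ccl5 ratio over all cells was 0.38 and that of Xcl1 0.50, both under 2-fold.

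More T cells carried Ccl5 in running: 66.8% of 205 cells in ground and 82.0% of 289 in running, or 61.3% and 77.4% after thinning. The background in immature neutrophil-like cells was 3.31% and 6.52%. Median depths were 4538 and 5785 UMIs in T cell-like cells and 11059 and 8689 in the immature neutrophils. By detected coreceptor, the share among cells with Cd8a or Cd8b1 was 73.6% of 91 cells in ground (95% interval 63.3 to 82.3) and 88.5% of 122 in running (81.5 to 93.6). Among the 19 and 35 cells with Cd4 it was 36.8% (16.3 to 61.6) and 57.1% (39.4 to 73.7). In both subsets the intervals of the 2 libraries overlap. Cells with neither message had 66.3% and 83.1%.

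Outside T and NK cell-like cells Ccl5 was low and called higher in 5 of the other 7 classes with at least 50 UMIs. These include the immature neutrophil-like cells taken as its background. Monocyte-like cells stood at -0.32 (-0.64 to 0.00) and granulocyte-monocyte progenitor-like cells at -0.99 (-1.69 to -0.33), where 1 ground cell held 31 of 72 UMIs. Without the shallow cluster 6, a setting added after the data were seen, the monocyte-like ratio turned to 0.74 (0.27 to 1.22). In mature neutrophil-like cells Ccl5 had 66 and 154 UMIs (1.29, 0.86 to 1.72) with at most 6 in a cell. T cell markers in these neutrophils were at 12.1 and 25.9 CPM, 14 of 15 with a UMI in each library. Their part in the result was not tested. In B cell-like cells 1 running cell held 41 of 57 UMIs. Conventional dendritic cell-like cells had 24 and 78 UMIs, with 14 and 23 in the top cells.

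Xcl1, or lymphotactin, is made by NK cells and CD8 T cells and attracts the cross-presenting dendritic cells that carry Xcr1 (ENSMUSG00000026573; chromosome 1, 164931644 to 164935522). It had 288 UMIs in ground and 662 in running (log2 ratio 1.27, 1.07 to 1.47). The T cell-like class contributed 48.6% and 49.1% of them and the NK cell-like class 42.0% and 48.0%. NK cell-like cells stood at 408 and 677 CPM (log2 ratio 0.73, 0.42 to 1.04), and 54.4% of 57 and 68.4% of 76 cells had a UMI. Of their 318 running UMIs, 1 cell held 62 and another 48, whereas the top ground cell held 11 of 121. The interval does not cover such unevenness between cells. Thinned, the shares of NK cell-like cells with a UMI were 28.1% and 32.9%, and the immature neutrophil-like background was 0.188% and 0.204%. Median depths of the NK cell-like cells were 4770 and 5472 UMIs.

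T cell-like cells had Xcl1 at 132 and 176 CPM (0.42, 0.13 to 0.72). The share of them with a UMI was 29.8% and 38.1%, but 13.7% and 12.2% after thinning, so no order is read from it. Within them, the cells with neither Cd4 nor Cd8 message held 85 of 140 UMIs in ground and 250 of 325 in running, and 34.7% (25.3 to 45.2) and 56.9% (48.0 to 65.6) of them had a UMI. In the cells with Cd8a or Cd8b1 the share was 28.6% and 28.7%. These subset shares were not thinned, and the T cell-like medians were 4538 and 5785 UMIs, so no order is read from them either. The cells with neither message thus made up 33 of 61 Xcl1-positive T cells in ground and 74 of 110 in running. In NK cell-like cells 2 of 4 genes, Ccl3 and Ccl4, were called higher, and 0 lower, against 1.44% and 0.55% of 2363 features; Ccl5 and Xcl1 were not called.

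Cxcl10 is an interferon-induced CXC chemokine that draws activated T and NK cells through Cxcr3 (ENSMUSG00000034855; chromosome 5, 92346638 to 92348889). It was rare, with 263 UMIs in 96 ground cells and 370 UMIs in 122 running cells. Conventional dendritic cell-like cells held 51 UMIs in ground and 186 in running, 19.4% and 50.3% of all. Their level was 38.2 and 134 CPM, a call of higher (1.81, 1.35 to 2.28). It came from 11 of 143 and 15 of 159 cells, 7.69% and 9.43%, so the positive cells held more each, 4.64 and 12.4 UMIs on average; in B-cell precursor-like cells 0 of 475 and 3 of 565 had one, and the 0 allows a share of up to 0.774% (exact 95% bound).

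Mature neutrophil-like cells had 80 Cxcl10 UMIs in ground and 19 in running, a call of lower (-2.01, -2.82 to -1.28). These sat in 11 and 9 cells, of which the top cells held 30 and 8. Cluster 20, the interferon-led one, held 35 of the 80, including the top cell, and cluster 4 held 29. In conventional dendritic cell-like cells 3 of 7 genes were called higher, Cxcl10, Ccl3 and Ccl5, and 0 lower, against 1.91% and 1.33% of 5877 features. The 52 plasma cell-like cells held 29 and 25 UMIs, of which 1 cell held 24 and 21.

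A list of 12 genes induced by interferon along with Cxcl10 had 11 members in the files, all with at least 50 UMIs. Over all cells, 11 of 11 lay above 0 and 6 were called higher, with a median of 1.03. Of the 13738 features with at least 50 UMIs, 69.8% lay above 0, 2.48% were called higher and 0.539% lower, with a median of 0.08. The highest ratios were Ifit3 at 1.70 and Isg15 at 1.23, which encode antiviral proteins. The lowest were Irf1, a transcription factor, at 0.12 and Rsad2, the antiviral enzyme viperin, at 0.77. In mature neutrophil-like cells, where Cxcl10 was lower, 10 of the 11 lay above 0 and 2 were called higher, with a median of 0.70. Of all features in that class, 64.8% lay above 0 and 2.22% were called higher. In conventional dendritic cell-like cells 8 were called higher with a median of 1.44, beside 1.91% of features called higher in that class.

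Pf4, or Cxcl4, and Ppbp, the precursor of the neutrophil attractant Cxcl7, are stored in platelet alpha granules and made by megakaryocytes. Pf4 (ENSMUSG00000029373; chromosome 5, 90772435 to 90773383) lies 2371 bases from Ppbp (ENSMUSG00000029372; 90768518 to 90770063). The stem or multipotent progenitor-like cluster 10 held 96.3% of Pf4 UMIs in ground and 96.9% in running. Its level was 1604 CPM and 5266 CPM (log2 ratio 1.72, 1.65 to 1.78), and 18.3% of 82 and 31.9% of 91 cells had a UMI. Thinned, 12.2% and 15.7% had one. The B-cell precursor-like background was 0.421% and 3.36%, and the median depths of cluster 10 were 14942 and 18789 UMIs. In this class 2 of 7 genes were called higher and 2 lower, against 1.54% and 0.932% of 7511 features.

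Cells with at least 3 of 12 megakaryocyte markers, a cut chosen after the data were seen, numbered 23 in ground and 35 in running. They held 95.7% and 96.6% of all Pf4 UMIs and 96.0% and 97.3% of all Ppbp UMIs. Within them the Pf4 level was 4500.3 and 8605 CPM (log2 ratio 0.94, 0.87 to 0.998), under 2-fold. The number of such cells and the summed level within them both stood higher in running, but the number was not matched for depth. Only 12 of the 23 and 21 of the 35 cells had a Pf4 UMI, with a median of 1 UMI over these cells in each library. Ppbp within the marker-bearing cells was at 42.7 and 301 CPM (2.82, 2.22 to 3.48).

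The same few large cells led both genes. The top running cell had 139375 UMIs, all 12 megakaryocyte markers, 4124 Pf4 UMIs and 262 of Ppbp. The next had 87232 UMIs, 11 markers, 2718 of Pf4 and 72 of Ppbp. In ground the first 2 cells had 91113 and 68793 UMIs with 1241 and 618 of Pf4, and 10 and 1 of Ppbp. Pf4 made up 2.96% and 3.12% of the UMIs of those running cells and 1.36% and 0.898% of those ground cells. Ppbp was not confined to large cells: a running cell with 942 UMIs in all held 16 of them, with 8 markers detected.

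Outside the marker-bearing cells Pf4 had 113 UMIs in ground and 358 in running (1.74, 1.43 to 2.06), mostly as single UMIs spread over classes. Mature neutrophil-like cells had 10 and 62, in 0.347% and 1.76% of cells, and monocyte-like cells 25 and 53. The neutrophil shares lay below those of B-cell precursor-like cells, and the levels of 0.732 and 4.74 CPM in neutrophils compare with 0.771 and 4.56 CPM in the precursors. The calls of Pf4 in neutrophil, monocyte and erythroid classes rest on such counts.

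A list of 16 platelet and megakaryocyte genes, without the 2 chemokines, had 15 members with at least 50 UMIs over all cells. All 15 lay above 0 and 9 were called higher, with a median of 1.34, against the 2.48% of features given above. The highest were the collagen receptor gene Gp6, with 3 UMIs in ground and 58 in running (4.34), and, tied at 2.16, Treml1, a platelet granule receptor, and Gp1ba, part of the von Willebrand factor receptor. The lowest were the G protein subunit gene Gng11 at 0.12 and Gp9, another part of that receptor, at 0.46. Without the cell with most Pf4 in each library, 8 were called and the median was 1.25. Without all cells with 3 or more megakaryocyte markers, 11 of 15 lay above 0, 1 was called and the median was 0.49. Those markers are themselves genes of this list, so removing the cells that carry them must take away UMIs of the list. The loss of calls is thus not independent of the removal, and no conclusion is drawn from it. Over all features, with all cells kept, 69.8% lay above 0.

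Receptors of these ligands were measured in the same cells. Of 8 genes, 7 had at least 50 UMIs, with 3 above 0, 1 called higher, 1 called lower and a median of -0.02, where 69.8% of all features lay above 0, 2.48% were called higher and 0.539% lower. Cxcr2, the receptor of Cxcl2 and of the Ppbp product, was at 1498 and 1287 CPM in mature neutrophil-like cells (-0.22, -0.25 to -0.19). Ccr1 in the same cells was at 749 and 780 CPM (0.06, 0.02 to 0.10). Cxcr3 had 297 and 565 UMIs over all cells (0.99, 0.79 to 1.20) and the scavenger receptor Ackr1 451 and 337 (-0.35). Ccr3 was called higher with 57 and 277 UMIs (2.35), of which 16 and 200 were in macrophage-like cells, 64 in ground and 226 in running. Xcr1, the Xcl1 receptor, was called lower with 61 and 29 UMIs (-1.01, -1.70 to -0.35), 42 and 17 of them in conventional dendritic cell-like cells. A single cell held 22 of the 61 and another 10 of the 29, and without them the call was lost (-0.97, -1.84 to -0.15).

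Of 28 other chemokine ligands, 27 were in the files and 9 had at least 50 UMIs; 5 of these lay above 0, 2 were called higher and 0 lower, with a median of 0.14, beside the same 69.8%, 2.48% and 0.539% over all features. Ccl1, a ligand made by activated T cells, had 0 UMIs in ground and 118 in running, all in the running T cell named above. Cxcl3, a near relative of Cxcl2, had 178 and 85 UMIs (2.17 and 1.08 CPM, log2 interval -1.39 to -0.62), and 154 and 75 of them were in mature neutrophil-like cells. Cxcl12, which retains cells in the marrow, was called higher at 1.25, with 1347 and 3058 UMIs, 92.4% and 92.3% of them in the 22 and 45 stromal cells, where its level was 21328 and 11074 CPM. Cxcl14 stood at 0.80 over all cells and also sat in stromal cells.

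Ccl2, a monocyte attractant, had 999 and 880 UMIs (-0.12), with 83.0% and 85.5% in monocyte-like cells; mature neutrophil-like cells had 73 and 14, a call of lower (-2.32). Cxcl9, interferon-induced like Cxcl10, had 298 and 260 UMIs (-0.13), of which 1 ground dendritic cell held 232. Ccl25, Cxcl16 and Ccl27a stood at 0.14, 0.23 and -0.12, with intervals across 0.

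Among 12 cytotoxic genes, all with at least 50 UMIs, 11 lay above 0 and 4 were called higher, with a median of 0.86, beside 69.8% and 2.48% of all features. Ifng at 2.24 and the granzyme gene Gzmk at 1.20 were the highest. For Ifng the running T cell named above held 66 of 203 UMIs, and the top ground cell 3 of 45. For Gzmk the top running cell held 19 of 70 UMIs and the top ground cell 4 of 32. Ratios of this list without such cells are not given. Nkg7 at -0.12 and the transcription factor gene Eomes at 0.53 were the lowest. Within T cell-like cells 9 of the 12 lay above 0 and 2 were called higher, with a median of 0.33, beside 51.5% and 1.58% of features in that class. Within NK cell-like cells 5 of the 10 with enough UMIs lay above 0 and 0 were called, beside 50.4% and 1.44%.

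The 12 genes of NF-kB signalling and myeloid activation, a route known to induce Cxcl2, Ccl3 and Ccl4, formed another list. Of 11 with at least 50 UMIs, 7 lay above 0 and 0 were called either way over all cells, with a median of 0.21, so the share above 0 was no higher than the 69.8% of all features. Tnfaip3, an inhibitor of that pathway, at 0.81 and Il1rn, the interleukin-1 receptor antagonist gene, at 0.78 were the highest. Cd14, the endotoxin coreceptor gene, at -0.86 and Ier3 at -0.13 were the lowest. In mature neutrophil-like cells Il1b was at 1999 and 2021 CPM (0.02), while Cd14 was called lower at 66.7 and 26.8 CPM (-1.31).

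Over the 28 sums of 14 classes in 2 libraries, the profiles most like each member were compared among 11613 genes; the points share libraries and depth, so the values describe these sums only. Xcl1 was closest to Fasl, Klra7 and Samd3 (r from 0.996 to 0.998) and Ccl5 to Sh2d1a, Cd160 and Il2rb (0.98). Pf4 was closest to Gp1bb, Timp3 and Cavin2 (0.94 to 0.96) and Ppbp to Treml1, Mrvi1 and Myom1 (0.94 to 0.97). Cxcl10 was closest to Cfb, Phf11d and Ifi205 (0.93 to 0.95) and Ccl9 to Cebpa, Tmem150b and Stx3 (0.89 to 0.92). Cxcl2 was closest to Cd300ld, Ggt5 and Mirt2 (0.91 to 0.92) and Ccl6 to Hacd4 and Nlrp3 (0.93). Beside each other, Ccl3 had Ggh and Nfil3 (0.83 to 0.84) and Ccl4 had Fxyd5 and Chn2 (0.81 to 0.86) as next closest.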

How the data were processed

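Raw UMI counts per gene and barcode were deposited by the authors for 2 libraries, 1 per group; per the file headers they came from Cell Ranger 5.0.0. The submitters' processing notes name STAR and mm10; other settings are not given in the sources used here. The libraries held 9162 (ground) and 9473 (running) barcodes with 85014860 and 79990530 UMIs. Gene coordinates come from RefSeq annotation of GRCm38.p6.

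Barcodes with at least 500 UMIs, 250 genes and at most 10% mitochondrial UMIs were kept. Scrublet (scanpy 1.11.5) called 243 (2.73%) and 100 (1.09%) doublets, which were removed. Both libraries were clustered jointly (2000 variable genes less 21 chemokine ligands, 30 components, 15 neighbours, Leiden resolution 1, no integration). Of 34 clusters, named from markers of 21 cell types, 1 stayed unnamed (212 and 217 cells). Classes with at least 50 cells in each library were compared.

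Counts were summed per class and scaled to CPM. Intervals are 95%: exact Poisson for levels, Clopper-Pearson for shares of cells, exact conditional binomial for ratios. They cover counting error only. Features needed 200 UMIs over all cells, or 50 in a class or for a gene list, in both libraries together. Shares were also taken with each cell thinned to 1000 UMIs, leaving out shallower cells. The interval script was tested on simulated Poisson counts. These lack unevenness between cells, so that test does not bear on genes whose UMIs sit in a few cells. The likeness of profiles is Pearson's r of log2(CPM + 10). Named beside the members are the 3 most like genes of each, the other ligands and receptors with 50 UMIs, and the 2 highest and 2 lowest ratios of each other list; a receptor and a gene of like profile that this rule names are not reported here. The members and lists were chosen with earlier results of these data known. No replicate test was possible with 1 library per group.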

Additional observations from a re-analysis of the deposited data

Results flagged for a closer look

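Ccl4 had opposite ratios in 2 classes. In NK cell-like cells its log2 ratio was 2.79 (32 UMIs in ground, 351 in running) and in macrophage-like cells it was -1.45 (22 and 38 UMIs). The top cells of the macrophage-like class held 18 and 22 of those UMIs, and without them its ratio was -0.31 (-1.94 to 1.73); the NK ratio without its top cells was 2.40. The difference between the classes was not tested.

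Cxcl10 also differed in direction, at 1.81 in conventional dendritic cell-like cells and -2.01 in mature neutrophil-like cells. Without the top cells the ratios were 2.27 and -2.12. This difference was not tested either.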

How the results depend on the processing

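The counts of genes called over all cells and in mature neutrophil-like, monocyte-like and T cell-like cells were recomputed under other settings; those of other classes were not. Over all cells the count of 5 became 2 with the mean over cells of per-cell CPM and 3 with the class proportions of ground in both libraries; means have no counting interval and were called by fold alone. In monocyte-like cells the count of 2 became 5 with the mean of per-cell CPM (2 higher, 3 lower). In mature neutrophil-like cells the count of 4 became 2 with the mean ratio of the 3 clusters that had at least 100 cells in both libraries, which gave a value for 5 of the 8 genes, an alternative added after the data were seen. The other settings (total without haemoglobin and granule genes, median gene ratio set to 0, a 1000 UMI minimum, doublets kept, top cells left out, no filter, chemokine ligands in the clustering) kept these 4 counts within 1.5 times, where they were run; the clustering setting was run for the 3 classes. With the ligands in the clustering, the cluster led by Cd209a and Clec10a (147 and 154 cells) got no name, so no conventional dendritic cell-like class existed. Of 272 single values, 190 lay within the counting error of the main value, 81 moved beyond it and 1 reversed; 262 kept their direction and 10 did not. The Ccl6 share in monocyte-like cells went from 4.97 percentage points higher in running to -0.0122 once thinned. Cxcl2 in neutrophil cluster 1 was 0.08 against -0.89 in the class. Ccl5 in monocyte-like cells was 0.74 without cluster 6 against -0.32 with it. Cxcl10 over all cells was -0.56 with per-cell CPM against 0.56. No paired analysis was possible because each group has 1 library. Depth limits Ppbp, Cxcl10 and Xcl1 most.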
